A study of Mus musculus with 4 samples.

Results

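The Smoc2/Sparc basal cells described here were 4708 of the 34150 epidermal cells kept from 4 mice, and of the 9656 that met the same limits on keratins, follicle and cycling genes, called basal cells here. A cell belonged to the Smoc2/Sparc basal cells when it held at least 20 counts of Krt5 and Krt14 together and fewer counts of Krt1 and Krt10 than 20% of that sum. It also had to hold fewer than 2 counts of Krt79, no count of Lhx2, fewer than 4 counts over Mki67, Top2a, Cdk1, Birc5, Ube2c and Ccna2, at least 2 counts over Smoc2, Antxr1, Sparc and Igfbp3, and none of Sostdc1, Fst, Aldh3a1 or Spock2. These measured values chose the cells, so their levels within the chosen cells are given as a description only. Dorsal epidermis came from female C57BL/6N mice at postnatal day 19, dissociated with DNAse I, Liberase and papain, labelled with sample tags and read as single cells on the BD Rhapsody platform, with 1 count matrix for each mouse. The sample labels call the 2 control mice WT, whereas the methods of the study describe its controls as CerS4fl/flK14Cre-. They describe CerS4epi-/- mice as CerS4fl/flK14Cre+. By that description all 4 mice carried the floxed CerS4 allele. The keratin-14 promoter, active in basal cells and in hair follicle and sebaceous progenitors, drove Cre in the CerS4epi-/- mice alone. CerS4 encodes a ceramide synthase.

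Basal keratinocytes of the interfollicular epidermis sit on the basement membrane, express keratins 5 and 14, and bind laminin and collagen through integrins and hemidesmosomes. They divide and give rise to the spinous and granular layers, where keratins 1 and 10 and the cornified envelope proteins replace the basal program. Smoc2 and Sparc encode secreted calcium-binding matricellular proteins, Antxr1 a collagen-binding membrane receptor, and Igfbp3 a secreted binding protein for insulin-like growth factors. Sostdc1 and Fst encode secreted antagonists of BMP and activin signaling, Aldh3a1 an aldehyde dehydrogenase, and Spock2 a proteoglycan.

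The 4 chosen genes lie apart in the mouse genome (GRCm39). Smoc2 is at chr17:14499735-14625074, Antxr1 at chr6:87110835-87312803, Sparc at chr11:55285317-55314067 and Igfbp3 at chr11:7156086-7164179 in the Gencode vM39 annotation. Among the 4708 cells, 71.0% held a count of Smoc2, 63.3% of Antxr1, 48.5% of Igfbp3 and 36.5% of Sparc. Only 17.4% of the cells held a single gene of the 4, whereas 49.6% held 2, 29.2% held 3 and 3.78% held all 4. Igfbp3 was found in 60.2% and 55.4% of these cells in the control mice but in 30.7% and 26.3% in the CerS4epi-/- mice. Sparc ran the other way, with 30.1% in both control mice against 52.2% and 47.2% in the CerS4epi-/- mice. The mix of genes that brought cells over the limit thus differed between the genotypes, which is given without a test. In barcodes of T cells, which should lack Smoc2, 2.97%, 1.59%, 2.19% and 0.741% held a count of it in control 1, control 2, CerS4epi-/- 1 and CerS4epi-/- 2, at median depths of 1615, 1540, 1926 and 1759 counts. For Antxr1 these shares were 4.95%, 6.35%, 7.30% and 3.70%, and for Sparc 6.93%, 6.35%, 5.11% and 4.44%. For Igfbp3 they were at most 3.96%. All lay well below the shares in the chosen cells, which these counts chose and which were read more deeply. The chosen cells had median depths of 3024, 2831, 4175 and 3601 counts in the same order, so those of the CerS4epi-/- mice were read more deeply.

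The other proposed markers and the general basal genes were read in the same cells. Itga3, the laminin-binding integrin chain alpha 3, was at 308 and 309 CPM (counts summed over these cells of a mouse and scaled to a common total) in the control mice and at 346 and 352 CPM in the CerS4epi-/- mice. Ccnd2, a G1 cyclin, was at 1168 and 945 CPM against 1038 and 1125 CPM, but T cell barcodes held it at 1671, 1525, 1830.3 and 1598 CPM, so it does not mark these cells by itself. The basal keratin Krt15 lay at 10187, 10272, 8717 and 9251 CPM, and Col17a1, the hemidesmosomal collagen, at 1499, 1582, 1759 and 1897 CPM. Both basal genes, which the rule did not use, were thus present in cells that it chose by Krt5 and Krt14. They were not set beside cells outside the basal class here, so they describe the label and do not test it. Cells with a sum of exactly 2 over the 4 chosen genes, just inside the limit, made up 22.5% of the total. Those just inside held Itga3 at 318, 302, 309 and 349 CPM, and cells just outside, with a sum of 1, at 298, 309, 232 and 300.0 CPM.

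Cers4 itself gave only a weak check of the genotype in these cells. Its summed counts were 3 and 4 in the control mice and 0 in both CerS4epi-/- mice. A count of 0 in both CerS4epi-/- mice together allows up to 0.469 CPM, and the control mice were at 0.587 and 0.821 CPM. In these cells the values lie in the direction of the labels but rest on 7 counts in all. Basal cells with a count of Sostdc1, Fst, Aldh3a1 or Spock2 lay the other way. They held 0 and 2 counts of Cers4 in the control mice and 6 and 6 in the CerS4epi-/- mice (0 and 1.46 against 1.51 and 2.32 CPM). In all basal cells the groups overlapped, at 1.67 and 1.04 CPM against 0.770 and 1.25 CPM. T cell barcodes, in which K14-driven Cre should not act, held the gene in every mouse (102, 59.2, 88.0 and 122 CPM). Mice of the same genotype shared no cell barcode among the kept cells, whereas each pair of mice of different genotype shared between 64 and 102, of which at most 1 was a Smoc2/Sparc basal cell in both. The sources used here do not say which mice were run together, and genotype and anything that the mice of a genotype shared in the run cannot be told apart.

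The share of basal cells of the same limits that met the rule was compared between the genotypes. Genes counted by the rule differed between the genotypes in all basal cells, such as Igfbp3 (log2 difference -2.16) and Aldh3a1 (1.75), as given below. The share depends on these counts, and whether a kind of cell was less frequent was not tested. They were 1602 of 2600 basal cells in control 1 (61.6%, 95% exact binomial interval 59.7 to 63.5%) and 1593 of 2682 in control 2 (59.4%, 57.5 to 61.3%). In the CerS4epi-/- mice they were 879 of 2479 (35.5%, 33.6 to 37.4%) and 634 of 1895 (33.5%, 31.3 to 35.6%). Both CerS4epi-/- mice lay below both control mice, and the mean share was 60.5% ± 1.57 (SD, n = 2) against 34.5% ± 1.42. The difference of -26.0 percentage points had an exact two-sided permutation p = 0.33, which is the smallest that 2 mice against 2 can give. Intervals cover counting error only. Against all kept cells the shares were 18.9% and 17.5% in the control mice and 9.75% and 8.38% in the CerS4epi-/- mice.

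**Figure D1:**
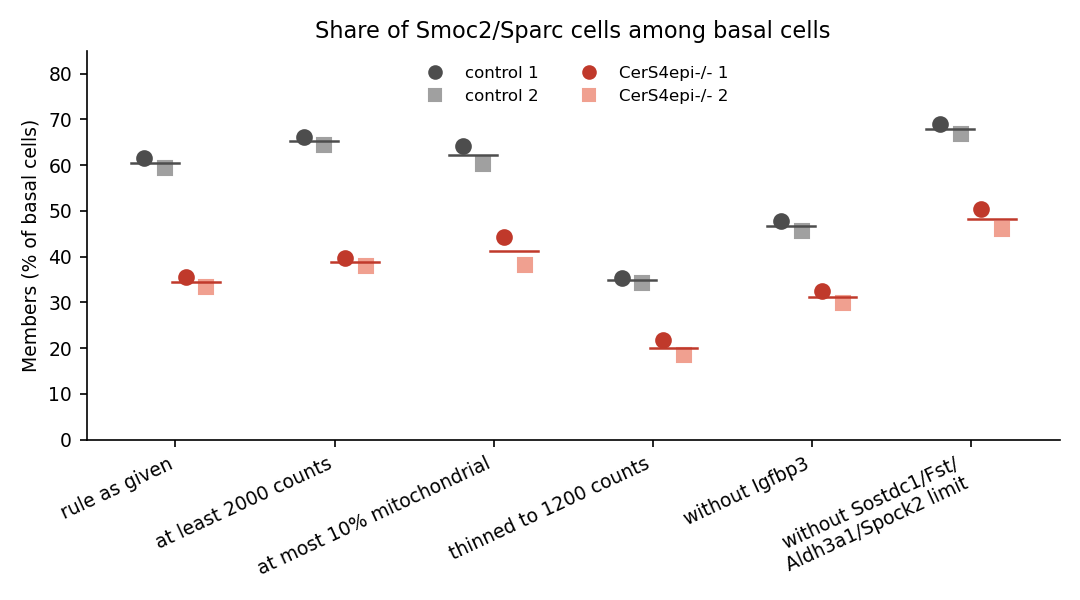
Share of Smoc2/Sparc basal cells among all basal cells of the same limits (y axis, percent) in each of 4 mice, under the rule as given and under 5 other settings; Members are the Smoc2/Sparc basal cells, points are mice and lines the mean of 2 mice. Under each setting both CerS4epi-/- mice lie below both control mice, and the gap is 26.0 percentage points under the rule as given and 14.7 after thinning each cell to 1200 counts.

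The mean share in the CerS4epi-/- mice was 0.569 of that in the control mice under the rule as given. Without Igfbp3 in the sum, the mean share was 46.6% in the control mice and 31.2% in the CerS4epi-/- mice, a difference of -15.5 points and a ratio of 0.669. With every cell thinned to 1200 counts, it was 34.8% against 20.1%, a difference of -14.7 points. The ratio of 0.578 after thinning was close to that under the rule as given, since both shares were lower. Without the limit on Sostdc1, Fst, Aldh3a1 and Spock2 the difference was -19.6 points (ratio 0.711), and among cells with at most 10% mitochondrial counts -21.0 points (ratio 0.663). The direction was the same in all of these, and 4 mice cannot go below the p-value given above. Igfbp3 and the limit on Sostdc1, Fst, Aldh3a1 and Spock2 were not left out together. Among the chosen cells, the median share of mitochondrial counts was 9.63% and 9.58% in the control mice and 10.5% and 10.4% in the CerS4epi-/- mice.

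The 8 genes that set the Smoc2/Sparc basal cells apart from other basal cells were tested in all 9656 basal cells, which were chosen by none of these 8. Of the 8, Igfbp3 and Antxr1 fell and the 4 barred genes rose in the CerS4epi-/- mice. In the same test 3.9% of 12394 genes passed (2.54% higher and 1.36% lower), but the 8 genes were chosen with earlier results of these data known, and nothing is read from their number. Igfbp3 was at 551 and 468 CPM in the control mice and at 131 and 88.8 CPM in the CerS4epi-/- mice, a log2 difference of -2.16 ± 0.17 (SE, adjusted p = 0.00148). Adjusted p-values here and below are from edgeR's quasi-likelihood test on counts summed per mouse, with Benjamini-Hochberg adjustment over all genes tested and a threshold of 0.05. Each SE was derived from that test, as the size of the log2 difference divided by the square root of its F value. Antxr1 was at 262 and 265 CPM against 173 and 143 CPM (-0.69 ± 0.10, adjusted p = 0.0152). That call did not hold without control 1 (-0.70) or without control 2 (-0.67). Smoc2 was at 325 and 301 CPM against 244 and 243 CPM (-0.31 ± 0.08, adjusted p = 0.0662), so that its groups did not overlap but the gene missed the threshold. Sparc, at 155 and 161 CPM against 208 and 169 CPM, missed it as well (0.31 ± 0.11, adjusted p = 0.184). Its value was 0.13 without CerS4epi-/- 1, and without CerS4epi-/- 2 it was 0.46 and passed.

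All 4 genes that a cell had to lack rose in the basal cells of CerS4epi-/- mice. Aldh3a1 went from 57.7 and 54.1 CPM to 190.0 and 174 CPM (log2 difference 1.75 ± 0.09, adjusted p = 0.000266), and Spock2 from 3.85 and 4.98 CPM to 27.3 and 39.0 CPM (2.95 ± 0.23, adjusted p = 0.00119). Sostdc1 was at 95.2 and 81.0 CPM against 198 and 172 CPM (1.12 ± 0.11, adjusted p = 0.00387). Fst was at 39.9 and 23.2 CPM against 96.3 and 92.8 CPM (1.63 ± 0.20, adjusted p = 0.00866). None of the groups overlapped. Basal cells that held at least 1 count of these genes, called Sostdc1/Aldh3a1 basal cells here, were 508 and 491 in the control mice and 1207 and 823 in the CerS4epi-/- mice. Differentiated keratinocytes held a count of Sostdc1 in 21.3%, 18.1%, 27.0% and 25.9% of barcodes at median depths of 4991, 4907, 6499.5 and 5740.0 counts, against 14.0%, 11.6%, 33.2% and 29.2% of all basal cells at 2835, 2672, 3297 and 3033 counts. The differentiated cells thus had the larger share in the control mice and the basal cells in the CerS4epi-/- mice, although basal cells were read less deeply in all 4. Scaled to the total counts, Sostdc1 was higher in basal cells in every mouse, at 95.2, 81.0, 198 and 172 CPM against 59.5, 49.0, 66.8 and 63.4 CPM, so that no order is read from the shares.

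**Figure D2:**
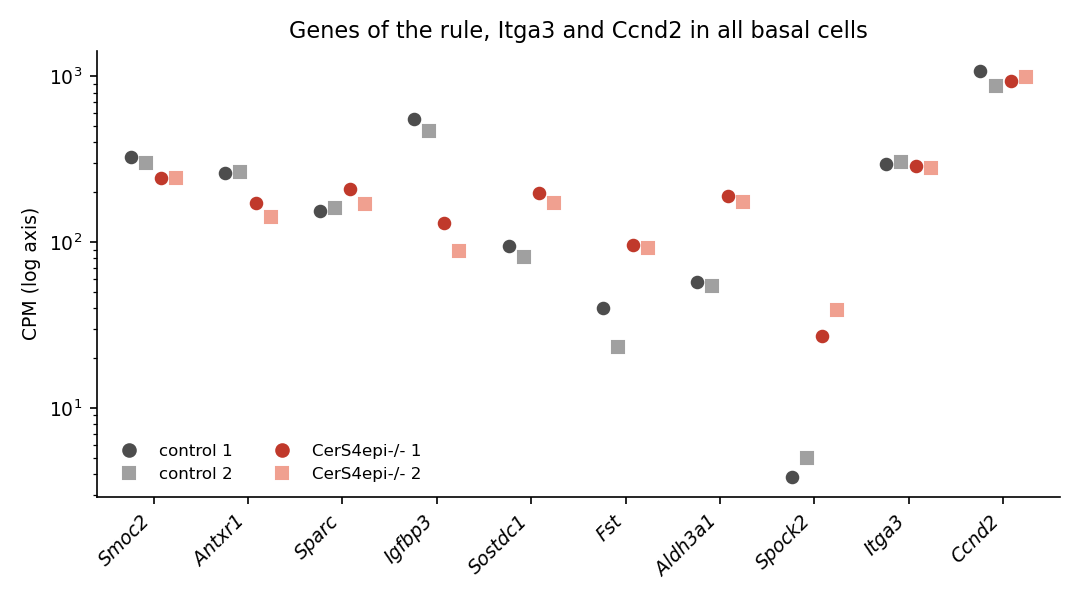
Level of the 8 genes of the rule and of Itga3 and Ccnd2 in all basal cells of the same limits, in CPM on a log axis, in 2 control and 2 CerS4epi-/- mice; each point is 1 mouse. Igfbp3 is lower in both CerS4epi-/- mice (131 and 88.8 CPM) than in the control mice (551 and 468 CPM), Spock2 is higher (27.3 and 39.0 against 3.85 and 4.98 CPM), and Itga3 and Ccnd2 show no called difference.

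Within the chosen cells the same genes are a description of what the rule admitted. Smoc2 was nearly level there, at 403 and 389.5 CPM in the control mice and 357 and 402 CPM in the CerS4epi-/- mice. Sparc was at 197 and 209.5 CPM against 341 and 307 CPM, and Antxr1 at 329.7 and 338 CPM against 251 and 237 CPM. Igfbp3 was at 789 and 679 CPM against 247 and 175 CPM. Counts of these genes admitted the cells, so the levels give no further support for a difference. In low-Smoc2/Sparc cells, described next, Sparc lay the other way, at 40.8 and 37.1 CPM against 29.8 and 30.5 CPM.

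The chosen cells were then set beside the 2 other kinds of basal cell in the same mouse. One was the 1919 low-Smoc2/Sparc basal cells, with a sum of 0 or 1 over the 4 chosen genes and none of the 4 barred genes, and the other the 3029 Sostdc1/Aldh3a1 basal cells. Because the rule chose this contrast, no test was made, and the chosen cells were also deeper, at medians of 3024, 2831, 4175 and 3601 counts against 2439, 2383, 2833 and 2706 in low-Smoc2/Sparc cells and 2566, 2463, 2866 and 2722 in Sostdc1/Aldh3a1 cells. Genes entered the lists below with a mean of at least 50 CPM in the chosen cells, a limit that favours genes high in them, so the counts describe and support nothing. Of basement membrane genes, 11 of the 12 with at least 50 CPM were higher than in low-Smoc2/Sparc cells in all 4 mice (median log2 ratio 0.32), where 17.9% of 3265 genes were. Of marker genes of basal interfollicular keratinocytes, 10 of 13 were higher against low-Smoc2/Sparc cells and 12 of 13 against Sostdc1/Aldh3a1 cells, where 23.8% of all genes were. Of the DNA replication genes, Mcm6, a subunit of the replicative helicase, was at 102, 81.1, 88.3 and 98.6 CPM against 63.6, 60.0, 50.7 and 58.0 CPM in low-Smoc2/Sparc cells, whereas Mcm4, Mcm5 and Rrm1 passed the limit through the chosen cells alone and are not counted. For glycolysis and hypoxia genes, 16 of 18 and 14 of 18 were higher. The genes of the mitochondrial genome were all 12 lower against low-Smoc2/Sparc cells, by a median of -0.08, where 8.97% of all genes were lower.

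For the genes higher in the chosen cells, those with a mean of at least 50 CPM there were ranked by their smallest ratio over the 4 mice. This limit too favours genes high in the chosen cells. Against low-Smoc2/Sparc cells, Adam8 and Lig1 were among those that met it through the chosen cells alone. Against Sostdc1/Aldh3a1 cells, so did Adam8, Serpinb7, Slc4a8, Igfbp7, Gjb5, Gdpd2, Sprr2a1 and Sprr2a2. These ranks describe and support nothing. Adam8, a membrane metalloproteinase, headed both comparisons, at 64.1, 65.3, 56.9 and 40.8 CPM in the chosen cells of control 1, control 2, CerS4epi-/- 1 and CerS4epi-/- 2. It was at 36.9, 27.0, 29.8 and 20.6 CPM in low-Smoc2/Sparc cells and at 17.8, 29.2, 21.2 and 10.8 CPM in Sostdc1/Aldh3a1 cells. Lgr6, an R-spondin receptor that marks stem cells of skin, was at 101, 128, 43.4 and 53.7 CPM against 65.2, 89.7, 27.3 and 25.2 CPM in low-Smoc2/Sparc cells. In every mouse the chosen cells were the higher of the pair for both genes. Il1r2, the decoy receptor for interleukin-1, was at 312, 339, 270 and 380 CPM against 112, 163, 119 and 144 CPM in Sostdc1/Aldh3a1 cells, and Ndufa4l2, a hypoxia-induced mitochondrial protein, at 558, 423, 486 and 501 CPM against 162, 193, 168 and 153 CPM. Serpinb7, Slc4a8, Chit1, Igfbp7, Gjb5, Gdpd2, Sema3d, Cbr2, Klk11 and Il20ra were also among the 15 highest against Sostdc1/Aldh3a1 cells, each higher in all 4 mice. Sprr2a1 and Sprr2a2 did too, but are near-identical copies between which reads cannot be split with certainty.

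Genes that were lower in the chosen cells included transcription factors of the hair follicle. Of the lowest genes named here, all but Spink5 lay below the CPM limit given above in the chosen cells. They met it through the other cells alone, a choice that favours genes high there, so these ranks describe and support nothing. Gata6, a transcription factor of the upper hair follicle and sebaceous duct, was at 1.37, 2.26, 3.06 and 2.83 CPM against 54.1, 32.1, 52.8 and 75.2 CPM in Sostdc1/Aldh3a1 cells. Sox9, a transcription factor of hair follicle stem cells, was at 12.3, 12.3, 29.3 and 34.3 CPM against 186, 181, 237 and 324 CPM. The chosen cells were lower in all 4 mice, and Vsnl1, Abi3bp, Acot1, Scube2, Cacna2d2, Defb1 and Alox12e also were. Against low-Smoc2/Sparc cells the keratin Krt6a differed most, at 33.4, 27.7, 49.4 and 11.7 CPM against 574, 161, 725 and 1947 CPM, followed by Serpinb11, Sox9, Timp3 and Spink5. Krt6a varied widely between mice in the low-Smoc2/Sparc cells, and its log2 ratio ran from -7.38 to -2.54. Of the markers themselves, Ccnd2 was higher in the chosen cells of all 4 mice against both other kinds (mean log2 ratios 0.55 and 0.20). Itga3 was higher in all 4 mice against low-Smoc2/Sparc cells (mean 0.30), and against Sostdc1/Aldh3a1 cells (mean 0.34) in all but control 2, where both stood at 309 CPM.

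**Figure D3:**
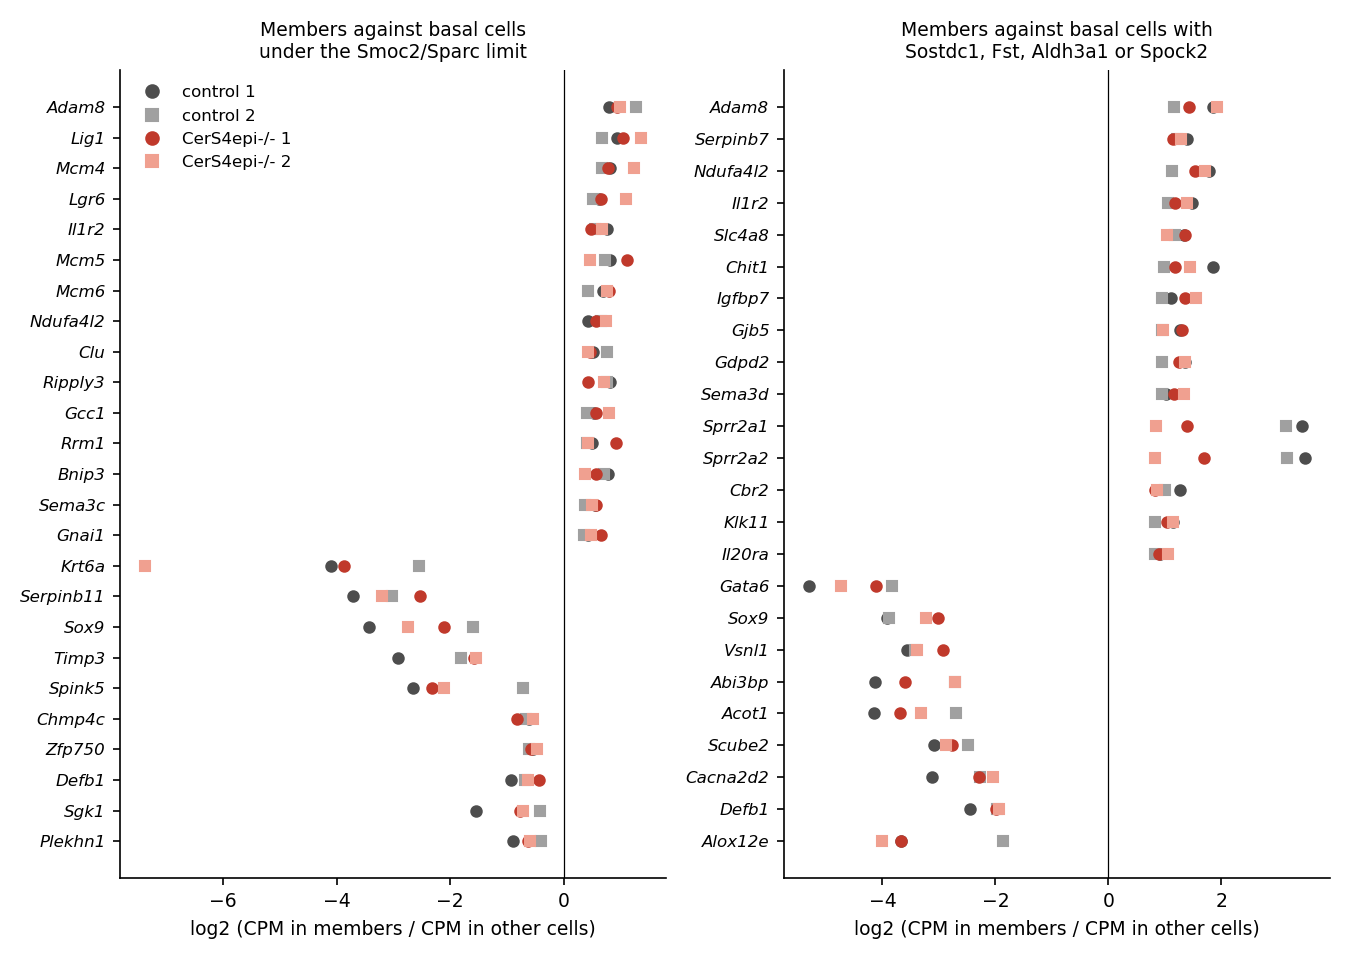
Log2 ratio (x axis) of CPM in the Smoc2/Sparc basal cells to CPM in low-Smoc2/Sparc basal cells (left) and in Sostdc1/Aldh3a1 basal cells (right) for the 15 genes highest and up to 10 genes lowest in the chosen cells, 1 point per mouse; Members are the Smoc2/Sparc basal cells and the line marks 0. All points of a gene lie on one side of the line, with Gata6 and Sox9 at means of -4.49 and -3.51 on the right and Adam8 at 1.59.

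The genotypes were compared next within the Smoc2/Sparc basal cells, whose counts were summed per mouse (5113792 and 4872842 counts in the control mice, 3920690 and 2474647 in the CerS4epi-/- mice). As given above, fewer of these cells held Igfbp3 and more held Sparc in the CerS4epi-/- mice, where cells were also read more deeply. The cells compared may thus differ in kind between the genotypes. The part of this in the results below was not tested, and other forms of the rule are given at the end. A small share of genes passed the test in these cells: 104 of 11413 genes tested rose and 36 fell in the CerS4epi-/- mice, or 1.23% in either direction (0.911% and 0.315%), and the median log2 difference of all genes was -0.00. The 140 include genes that the rule used, Igfbp3 and Sparc among them, which are no test result here. With the genes of the rule left out, 101 rose and 35 fell. An unadjusted p under 0.05 was reached by 1435 genes. For each of the 140 genes both CerS4epi-/- mice lay on one side of both control mice, as did 43.9% of all genes. The counts moved with single mice, to 60 and 21 without control 1, to 157 and 58 without CerS4epi-/- 1 and to 110 and 89 without CerS4epi-/- 2. A fit without a mouse assumes that the lone mouse left in a group varies like the other 2.

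Among genes with a mean of at least 20 CPM, the 10 largest rises included a water channel, a long non-coding RNA, a matricellular protein and a claudin. Aqp3, the water and glycerol channel of the basal epidermis, was at 8.02 and 9.03 CPM in the control mice and 55.9 and 71.5 CPM in the CerS4epi-/- mice (log2 difference 2.91 ± 0.18 SE, adjusted p = 0.000212). H19, an imprinted long non-coding RNA, was at 87.8 and 90.3 CPM against 689.9 and 419 CPM (2.68 ± 0.20, adjusted p = 0.000403). Postn, which encodes the matricellular protein periostin, was at 22.7 and 14.4 CPM against 126 and 59.0 CPM (2.38 ± 0.32, adjusted p = 0.00670). The CerS4epi-/- mice were several times above the control mice in all of them, although H19 and Postn were clearly higher in CerS4epi-/- 1 than in CerS4epi-/- 2. Cldn4, a tight junction claudin, was at 7.63 and 9.03 CPM against 32.4 and 38.8 CPM (2.11 ± 0.19, adjusted p = 0.00102). Krt16, a keratin of wounded and inflamed epidermis, was at 42.0 and 22.4 CPM against 99.5 and 139.6 CPM (1.90 ± 0.25, adjusted p = 0.00504). Cstdc5, of the cystatin family, was at 15.5 and 5.64 CPM against 142 and 66.1 CPM (3.35 ± 0.40, adjusted p = 0.00426). The control mice themselves differed by more than a factor of 2 for Cstdc5. Gda, Igfbp4, Ptp4a3 and Fam167a rose by 1.67, 1.63, 1.61 and 1.49 on the log2 scale, Ptp4a3 not with cells thinned before the rule was applied (0.99).

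The 10 largest falls included a cadherin, a forkhead factor and 2 receptors. Cdh4, which encodes R-cadherin, was at 66.5 and 66.5 CPM in the control mice and at 15.6 and 8.89 CPM in the CerS4epi-/- mice (log2 difference -2.34 ± 0.20, adjusted p = 0.000808). Foxq1, a forkhead transcription factor, was at 73.7 and 94.2 CPM against 23.7 and 36.4 CPM (-1.49 ± 0.20, adjusted p = 0.00550). Lgr6 was at 101 and 128 CPM against 43.4 and 53.7 CPM (-1.22 ± 0.16, adjusted p = 0.00493). The groups did not overlap for these genes, and both CerS4epi-/- mice were low. Ngfr, the low-affinity neurotrophin receptor, was at 46.5 and 62.2 CPM against 22.4 and 24.2 CPM (-1.19 ± 0.18, adjusted p = 0.0108). Gpha2, a glycoprotein hormone subunit, fell by 1.85 on the log2 scale and Olfm1 by 1.25. Susd2, Mab21l4, Paqr5 and Zdhhc2 fell by 1.29, 1.06, 1.00 and 0.95, but these calls hung on single mice. Without control 1 the values were -1.06, -0.77, -1.04 and -0.75 and none of these 4 genes passed. Paqr5 did not pass without control 2 (-0.96), nor Mab21l4 without CerS4epi-/- 1 (-1.02).

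**Figure D4:**
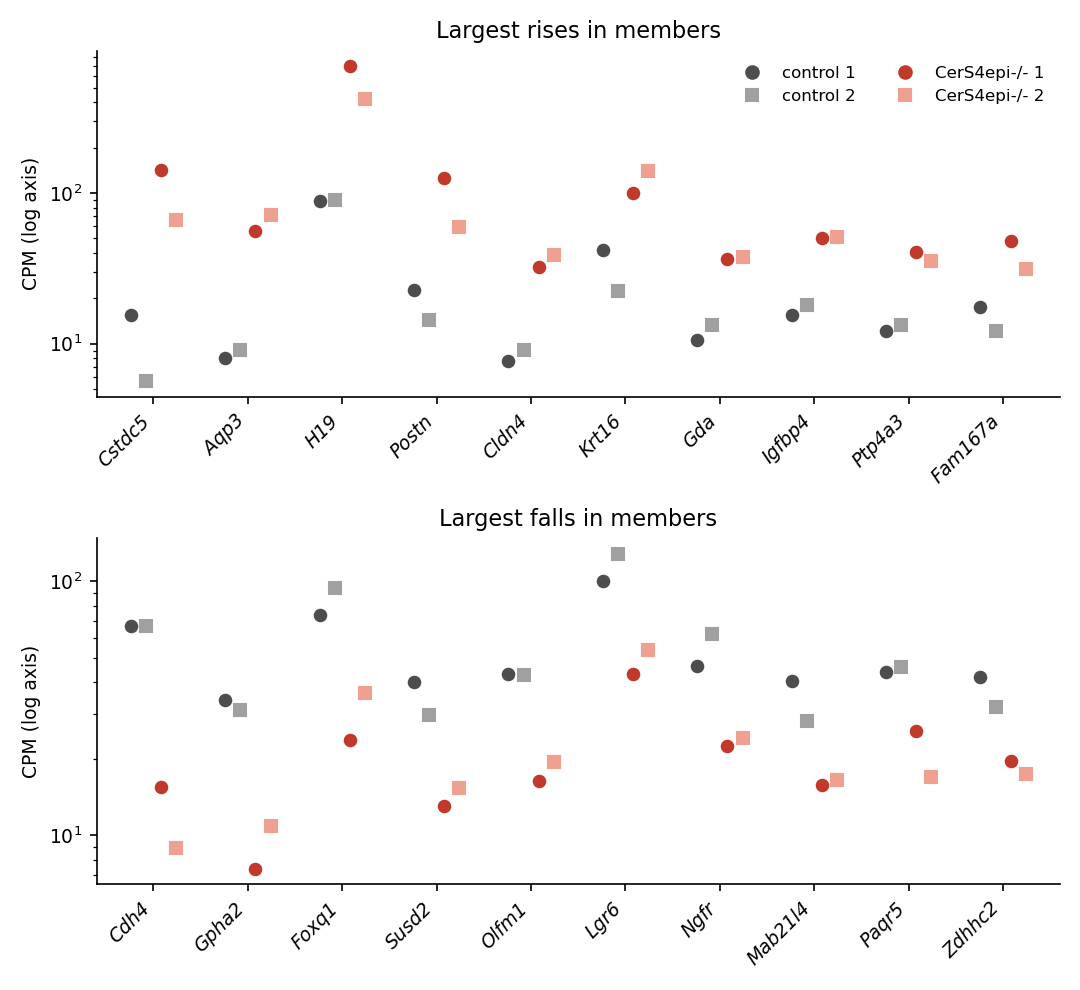
Level of the 10 genes with the largest rises (top) and the 10 with the largest falls (bottom) between genotypes within the Smoc2/Sparc basal cells, in CPM on a log axis; Members are those cells and each point is 1 mouse. The groups do not overlap for any of these genes, Aqp3 going from 8.02 and 9.03 to 55.9 and 71.5 CPM and Cdh4 from 66.5 in both control mice to 15.6 and 8.89 CPM.

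Of 19 basement membrane genes tested, 2 rose and 1 fell (15.8% against 1.23% of all genes, median log2 difference 0.18). Col18a1, the collagen that yields endostatin, was at 49.3 and 43.2 CPM against 98.5 and 86.1 CPM (1.04 ± 0.13, adjusted p = 0.00431), and Col4a1, a chain of the collagen IV network, at 30.7 and 24.4 CPM against 8.42 and 8.89 CPM (-1.64 ± 0.21, adjusted p = 0.00493). The 2 collagens thus went in opposite directions, with no overlap between the groups. Of 15 integrin and hemidesmosome genes 1 rose (6.67%, median 0.01). This was Itgb4, the hemidesmosomal integrin chain, at 399.5 and 429.7 CPM against 532 and 578 CPM (0.45, adjusted p = 0.0492), and it did not pass without control 1 (0.39), control 2 (0.51) or CerS4epi-/- 2 (0.40). Of 15 secreted matrix genes 2 rose (13.3%, median 0.24), Postn and Thbs2, the latter an inhibitory thrombospondin at 57.5 and 50.5 CPM against 89.0 and 101 CPM (0.84, adjusted p = 0.00998), which did not pass without control 2 (0.76). Itga3 did not pass (0.21 ± 0.09, adjusted p = 0.353).

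None of the 13 marker genes of basal interfollicular keratinocytes passed the test (median -0.05), which is near the background of 1.23% of all genes. Trp63, the master transcription factor of stratified epithelia, was at 529.9 and 554 CPM in the control mice and 413 and 416 CPM in the CerS4epi-/- mice (-0.36 ± 0.09, adjusted p = 0.0926), and the chemokine gene Cxcl14 at 2053 and 1909 CPM against 1609 and 1341 CPM (-0.39 ± 0.10, adjusted p = 0.116). Cxcl14 passed without CerS4epi-/- 1 (-0.53). For both genes the groups did not overlap, yet neither passed with all 4 mice. For Ccnd2 the groups overlapped (0.06 ± 0.11, adjusted p = 0.857).

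Of 20 spinous and granular genes tested, 2 rose and 1 fell (median -0.12), where 1.23% of all genes were called in either direction. Krt77, a keratin of differentiating epidermis, was at 389.9 and 367 CPM in the control mice and 218 and 206 CPM in the CerS4epi-/- mice (-0.80 ± 0.09, adjusted p = 0.00353). Tgm3, a transglutaminase, was at 45.4 and 34.3 CPM against 95.6 and 93.3 CPM (1.28 ± 0.14, adjusted p = 0.00309), and Cst6, cystatin M/E, at 31.7 and 30.4 CPM against 61.2 and 73.1 CPM (1.13 ± 0.14, adjusted p = 0.00426). The most abundant of the 3, Krt77, was the one that fell. Of 12 stress keratins and alarmins, Krt16 and Sprr1a rose (median -0.02). Sprr1a, a cornified envelope protein, was at 40.7 and 22.0 CPM against 89.5 and 80.0 CPM (1.47 ± 0.22, adjusted p = 0.0124). It did not pass with equal numbers of cells from each mouse (0.74), without Igfbp3 in the rule (1.01) or in DESeq2 (1.47). Krt17 was just short of the threshold at 147 and 134 CPM against 185 and 254 CPM (0.67 ± 0.14, adjusted p = 0.0530). Its value was 0.44 without CerS4epi-/- 2, and without CerS4epi-/- 1 it was 0.88 and passed.

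Immediate early genes, the AP-1 factors and other genes that cells switch on within minutes of a stimulus, formed a group in which 7 of 29 tested genes rose and none fell (24.1% against 1.23% of all genes; median 0.15). Fos was at 3763 and 3486 CPM in the control mice and 4859.6 and 5178 CPM in the CerS4epi-/- mice (0.50 ± 0.08, adjusted p = 0.0169), and Fosb at 1978 and 1877 CPM against 2646 and 3021 CPM (0.59 ± 0.09, adjusted p = 0.0125). Dusp1, a phosphatase that acts on MAP kinases, was at 694 and 738 CPM against 1099 and 1102 CPM (0.65 ± 0.08, adjusted p = 0.00504). Both CerS4epi-/- mice lay above both control mice for these 3 genes. Ier5 was at 24.4 and 28.1 CPM against 48.0 and 73.5 CPM (1.21 ± 0.20, adjusted p = 0.0167). Jund, Egr1 and Klf4 rose by 0.45, 0.63 and 0.51. Of the 7, Fosb and Dusp1 passed without any 1 of the mice. Ier5 (1.11) did not pass without control 1, nor did Jund (0.46). Egr1 (0.55), Klf4 (0.45) and Jund (0.45) did not pass without control 2, and Fos (0.46), Egr1 (0.45), Klf4 (0.43) and Jund (0.37) not without CerS4epi-/- 2. The count of risen genes was 5, 4 and 3 without control 1, control 2 and CerS4epi-/- 2, and 10 without CerS4epi-/- 1. Among cells with at most 10% mitochondrial counts 7 genes rose as well. The skin was digested with enzymes before the cells were read, and the part of that step in these values was not tested. Of 15 heat shock genes none passed (median 0.03).

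The promoters of Dusp1 and Fos are shown because these genes rose together and differ in their motifs. Each run covers 250 bases before to 50 after the start of the gene (sequence from RefSeq, GRCm38.p6, found once in GRCm39), 5′ to 3′ on the strand of the gene. Capitals mark TGACGT, the core of the cAMP response element, on either strand, and the full element TGACGTCA holds it on both strands. The Dusp1 run is at chr17:26727397-26727696 on the minus strand and the Fos run at chr12:85520414-85520713 on the plus strand. The start used for Dusp1 is not that of its Gencode vM39 gene span (chr17:26724564-26781102), which on the minus strand begins at 26781102.
Dusp1: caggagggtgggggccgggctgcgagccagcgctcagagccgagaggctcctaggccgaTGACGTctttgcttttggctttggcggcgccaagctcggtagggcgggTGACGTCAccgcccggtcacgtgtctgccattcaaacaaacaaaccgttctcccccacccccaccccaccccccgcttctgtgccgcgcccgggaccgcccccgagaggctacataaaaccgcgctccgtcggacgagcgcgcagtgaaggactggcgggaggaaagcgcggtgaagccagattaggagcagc
Fos: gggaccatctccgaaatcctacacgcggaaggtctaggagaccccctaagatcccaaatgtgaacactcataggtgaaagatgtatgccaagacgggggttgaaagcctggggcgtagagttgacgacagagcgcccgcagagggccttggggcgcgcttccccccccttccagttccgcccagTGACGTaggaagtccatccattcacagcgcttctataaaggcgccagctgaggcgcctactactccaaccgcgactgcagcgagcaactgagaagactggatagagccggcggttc
Dusp1 held 3 matches to TGACGT, of which 2 lie in 1 full element, and Fos held 1. The windows of Fosb and Ier5 held neither, and none of the 4 windows held the AP-1 motif TGANTCA or a CArG box. Of 27025 mouse promoters of this length, 7.64% held TGACGT, 1.88% the full element, 7.93% TGANTCA and 1.57% a CArG box. Of the 8958 among them that belong to genes tested here, the shares were 12.7%, 3.46%, 4.84% and 1.25%. These matches describe the letters of the windows only.

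Of 16 genes of the EGF receptor pathway 4 rose and none fell (25% against 1.23% of all genes in either direction, median 0.24). Epgn, the EGF receptor ligand epigen, was at 299 and 260.0 CPM in the control mice and 533 and 642 CPM in the CerS4epi-/- mice (1.10 ± 0.11, adjusted p = 0.00187). Hbegf, a second ligand, was at 115 and 95.8 CPM against 173 and 166 CPM (0.72 ± 0.11, adjusted p = 0.0133). Dusp6 and Etv4, which MAP kinase signaling induces, rose by 1.05 and 2.36. All 4 genes had separate groups. Hbegf did not pass without control 2 (0.60), Etv4 without control 2 (1.91) or Dusp6 without control 1 (1.02), leaving 2 and 3 called genes in those fits. Without CerS4epi-/- 1 the count was 6. Of 10 genes of the insulin-like growth factor axis 3 rose (30.0%, median -0.08), all of them binding proteins like the chosen gene Igfbp3, which is left out of this count. Igfbp2 was at 1.17 and 2.46 CPM against 20.1 and 13.7 CPM (3.28 ± 0.37, adjusted p = 0.00314), Igfbp4 at 15.4 and 18.1 CPM against 50.5 and 50.9 CPM (1.63 ± 0.15, adjusted p = 0.00102) and Igfbp7 at 81.7 and 72.8 CPM against 168 and 134 CPM (1.01 ± 0.13, adjusted p = 0.00493). Igfbp3 lay the other way in the same cells. Irs1, the receptor substrate, was at 44.8 and 42.7 CPM against 19.6 and 29.5 CPM and missed the threshold (-0.84 ± 0.18, adjusted p = 0.0581), which it passed without CerS4epi-/- 2 (-1.11).

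Pathways of stem cell fate are given beside the 0.911% of all genes that rose and the 0.315% that fell. In the Wnt pathway 2 of 31 genes fell (median 0.01), Lgr6 and the receptor Fzd3 (8.80 and 8.21 CPM against 2.55 and 2.02 CPM, -1.82 ± 0.34, adjusted p = 0.0371). In the BMP and TGF-beta pathway 2 of 26 rose and 1 fell (median 0.13). The rises were Id3 (0.70) and Id2 (0.85), inhibitors of basic helix-loop-helix factors, and the fall was Tgfb2, a ligand, at 24.4 and 17.4 CPM against 5.61 and 7.27 CPM (-1.70 ± 0.26, adjusted p = 0.0136). Notch1 was the single gene of 13 in the Notch pathway that rose (median 0.06), at 189 and 191 CPM against 275 and 316 CPM (0.67 ± 0.10, adjusted p = 0.0105). Its target Hes1 was at 403 and 630.4 CPM against 696 and 1496 CPM and did not pass (1.11 ± 0.30, adjusted p = 0.131). It was 0.47 without CerS4epi-/- 2, and without CerS4epi-/- 1 it was 1.56 and passed. Several of these calls were lost with 1 mouse fewer: Notch1 (0.66), Id3 (0.76), Id2 (1.02) and Tgfb2 (-1.44) without control 1, Notch1 (0.69), Id3 (0.65) and Id2 (0.70) without control 2, and Id2 (0.66) without CerS4epi-/- 2. Fzd3 did not pass without any of the 4 (-1.77, -1.86, -2.03 and -1.69 without control 1, control 2, CerS4epi-/- 1 and CerS4epi-/- 2).

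Among cell cycle genes, 1 of 15 G1 genes rose (median 0.06, with 0.911% of all genes rising), the inhibitor Cdkn1a, at 250.5 and 238 CPM against 337 and 456 CPM (0.72 ± 0.13, adjusted p = 0.0293). It did not pass without control 1 (0.76) or without control 2 (0.70). None of 18 DNA replication genes passed (median 0.00), nor any of 15 YAP and TAZ genes (median -0.16). Of 29 actin cytoskeleton genes 3 rose (median 0.00), again beside 0.911% of all genes. Cald1, the actin-binding caldesmon, was at 3.81 and 2.26 CPM against 16.2 and 26.7 CPM (2.77 ± 0.34, adjusted p = 0.00431) and Tpm2, a tropomyosin, at 19.9 and 29.3 CPM against 57.9 and 59.8 CPM (1.29 ± 0.18, adjusted p = 0.00697). Msn, the membrane linker moesin, rose by 0.83 and did not pass without control 1 (0.92) or control 2 (0.77). Of 21 cell junction genes Cldn4 alone rose (median 0.07).

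None of 37 tested sphingolipid genes passed (median 0.00), which with 1.23% of all genes called is near the background and says nothing particular to the pathway of the deleted enzyme. The same holds for the other metabolic lists with no called gene. The closest were Kdsr, a reductase of sphingoid base synthesis, at 61.0 and 59.5 CPM against 77.0 and 82.4 CPM (0.43 ± 0.11, adjusted p = 0.117), and Degs1, the dihydroceramide desaturase, at 55.5 and 62.8 CPM against 79.1 and 77.2 CPM (0.43 ± 0.12, adjusted p = 0.139). Of 23 cholesterol genes 1 rose and none fell (median 0.19). Of 26 glycolysis and hypoxia genes Car12, a carbonic anhydrase, rose (median 0.01), at 81.9 and 67.9 CPM against 147 and 141 CPM (0.97 ± 0.12, adjusted p = 0.00418). mt-Atp8 rose among 13 genes of the mitochondrial genome (0.49, median 0.12), but not without control 1 (0.48) or control 2 (0.50). No gene passed among 47 of the nuclear respiratory chain (median 0.06), 27 NRF2 and glutathione genes (0.05), 18 endoplasmic reticulum stress genes (-0.26), 19 clock genes (-0.07) and 30 interferon and antigen presentation genes (0.10).

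Markers of other cell types were read in the chosen cells for every mouse, and their calls stand beside the 0.911% of all genes that rose and the 0.315% that fell. Outer bulge markers summed to 249 and 221 CPM in the control mice and 462 and 393 CPM in the CerS4epi-/- mice, with Barx2 the most abundant (mean 84.2 CPM). Of the 9 tested 3 rose (median 0.67), Postn, Col18a1 and Sox9, the last at 12.3 CPM in both control mice against 29.3 and 34.3 CPM (1.39 ± 0.17, adjusted p = 0.00431). Upper hair follicle markers summed to 467 and 469.8 CPM against 601 and 767 CPM, with Krt17 the most abundant (mean 179.9 CPM), and Cst6, Sprr1a and Defb6 rose of 11 tested (median 0.67), Defb6 not without control 1 (1.14). Both lists were thus higher in the CerS4epi-/- mice, also beside the rises of Postn, Krt16 and Sprr1a above, and their part in those results was not tested. T cell markers summed to 112 and 106 CPM against 179 and 143 CPM, with Thy1 the most abundant (mean 101 CPM), and of 7 tested (median -1.24) Thy1 rose (1.14 ± 0.19, adjusted p = 0.0204) though not without control 1 (1.19) or control 2 (1.09). Of the 7, Thy1 alone had a positive log2 difference, at 67.3 and 62.4 CPM against 172 and 104 CPM, and the higher sum lay with it. The defining T cell genes Cd3e and Cd3g were each found in at most 0.628% of the chosen cells of a mouse. Fibroblast markers summed to 31.6 and 42.1 CPM against 57.1 and 66.4 CPM, and the single gene tested, Col6a1, rose (0.81), though not without control 1 (0.62) or CerS4epi-/- 2 (0.70), and Col1a1, Col1a2 and Col3a1 were between 0 and 1.79 CPM in each mouse. Hair shaft and inner root sheath markers summed to 859 and 880.2 CPM against 658 and 604 CPM (4 tested, median -0.41), and Gata3, the most abundant (mean 729 CPM), fell (-0.44), but not without control 1 (-0.46), control 2 (-0.42) or CerS4epi-/- 2 (-0.37).

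The remaining lists held no called gene. Inner bulge markers summed to 84.3, 67.6, 111 and 42.8 CPM in control 1, control 2, CerS4epi-/- 1 and CerS4epi-/- 2 (3 tested, median 0.20), and sebaceous gland markers to 225, 272, 216 and 251 CPM (7 tested, 0.05). Langerhans cell markers summed to 175, 221, 115 and 271 CPM (8 tested, -0.21), with Epcam the most abundant (mean 82.0 CPM). The groups overlapped in all 3 lists. Endothelial markers summed to 26.0, 21.9, 21.9 and 19.1 CPM (2 tested, -0.17), melanocyte markers to 7.63, 6.36, 6.25 and 4.45 CPM (1 tested, -0.30) and Merkel cell markers to under 1 CPM in each mouse (none tested). Between 2.84% and 4.44% of the chosen cells held a count of a defining marker of another cell type. With them left out, all 140 calls were made again among 236.

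Whether the genotype effect in the chosen cells differed from that in other basal cells was tested with both classes of each mouse in 1 fit. Some genes that split the classes, such as Igfbp3 (-2.16) and Aldh3a1 (1.75), differed between the genotypes in all basal cells. Which cells fell into each class may thus differ by genotype. The part of this in either difference was not tested, and no other form of the rule was run for them. Against low-Smoc2/Sparc cells, 8 of 10596 genes had a more positive and 55 a more negative difference in the chosen cells (0.0755% and 0.519%, together 0.595%), with Sparc, which the rule used, among the 8. Of 17 spinous and granular genes 5 were more negative and 1 more positive, and of 15 stress keratins and alarmins 5 were more negative. Upper hair follicle markers moved with them, 5 of 12 being more negative (Krt17, Klk7, Klk10, Cst6 and Sprr1a). Their sum in low-Smoc2/Sparc cells was 542 and 417 CPM in the control mice and 2526 and 3968 CPM in the CerS4epi-/- mice, with Krt17 the most abundant (mean 668 CPM), and their part in the result was not tested. Cst6 was at 36.9 and 36.4 CPM in the low-Smoc2/Sparc cells of control mice and at 511 and 653 CPM in those of CerS4epi-/- mice, set against 31.7 and 30.4 and 61.2 and 73.1 CPM in the chosen cells (difference of the log2 differences -2.91 ± 0.16, adjusted p = 1.85e-06). Its rise was thus far larger in the class that the rule drew as short of Smoc2 and Sparc. Sprr1a showed the same, at 25.9 and 16.9 against 695 and 499 CPM there. Lce1m, a late cornified envelope gene, was at 129.6 and 139.6 CPM against 725 and 1884 CPM in low-Smoc2/Sparc cells, but at 403 and 592 CPM against 101 and 582 CPM in the chosen cells. Klk7, a protease of desquamation, was at 65.2 and 43.2 CPM against 357 and 496 CPM in low-Smoc2/Sparc cells and at 69.4 and 97.5 CPM against 53.3 and 83.2 CPM in the chosen cells. For both genes the groups overlapped in the chosen cells and did not in low-Smoc2/Sparc cells. These calls depended on pairing the classes within each mouse: without the mouse as a block, 0 genes were more positive and 13 more negative, and with DESeq2 0 and 32. They were 57 and 161 without CerS4epi-/- 1, 15 and 88 without control 1 and 5 and 39 without control 2.

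Against Sostdc1/Aldh3a1 cells, 56 of 11424 genes had a more positive and 30 a more negative difference in the chosen cells (0.49% and 0.263%, together 0.753%), with Krt14 and Sparc, which the rule used, among the 56. Of the 29 immediate early genes 14 were more positive and none more negative (median 0.38, against 0.00 over all genes). Fosb was at 2677 and 2733 CPM in the Sostdc1/Aldh3a1 cells of control mice and at 2359 and 2506 CPM in those of CerS4epi-/- mice, whereas it rose in the chosen cells (difference of the log2 differences 0.69 ± 0.06, adjusted p = 2.52e-06). Dusp1 was at 920.1 CPM as a mean of 2 control mice and at 963 CPM in the CerS4epi-/- mice in Sostdc1/Aldh3a1 cells, against 716 and 1101 CPM in the chosen cells (0.54 ± 0.08, adjusted p = 0.000741). In control mice the chosen cells were therefore the lower class for these genes, and in CerS4epi-/- mice the higher one. Jun, Junb, Jund, Fos, Egr1, Atf3, Btg2, Zfp36, Klf4, Klf6, Nr4a1 and Rhob were the others. Epgn was at 196 and 221 CPM as means of the genotypes in Sostdc1/Aldh3a1 cells, against 279 and 587 CPM in the chosen cells (0.87 ± 0.12, adjusted p = 0.000378). Aqp3 stood at a higher level in Sostdc1/Aldh3a1 cells, with means of 126 and 247 CPM for the genotypes against 8.52 and 63.7 CPM in the chosen cells (1.89 ± 0.21, adjusted p = 3.65e-05). The counts of more positive and more negative genes were 24 and 3 with DESeq2 and 1 and 0 without the mouse as a block. Without control 1 they were 81 and 78, without control 2 they were 67 and 60, and without CerS4epi-/- 1 they were 33 and 30.

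**Figure D5:**
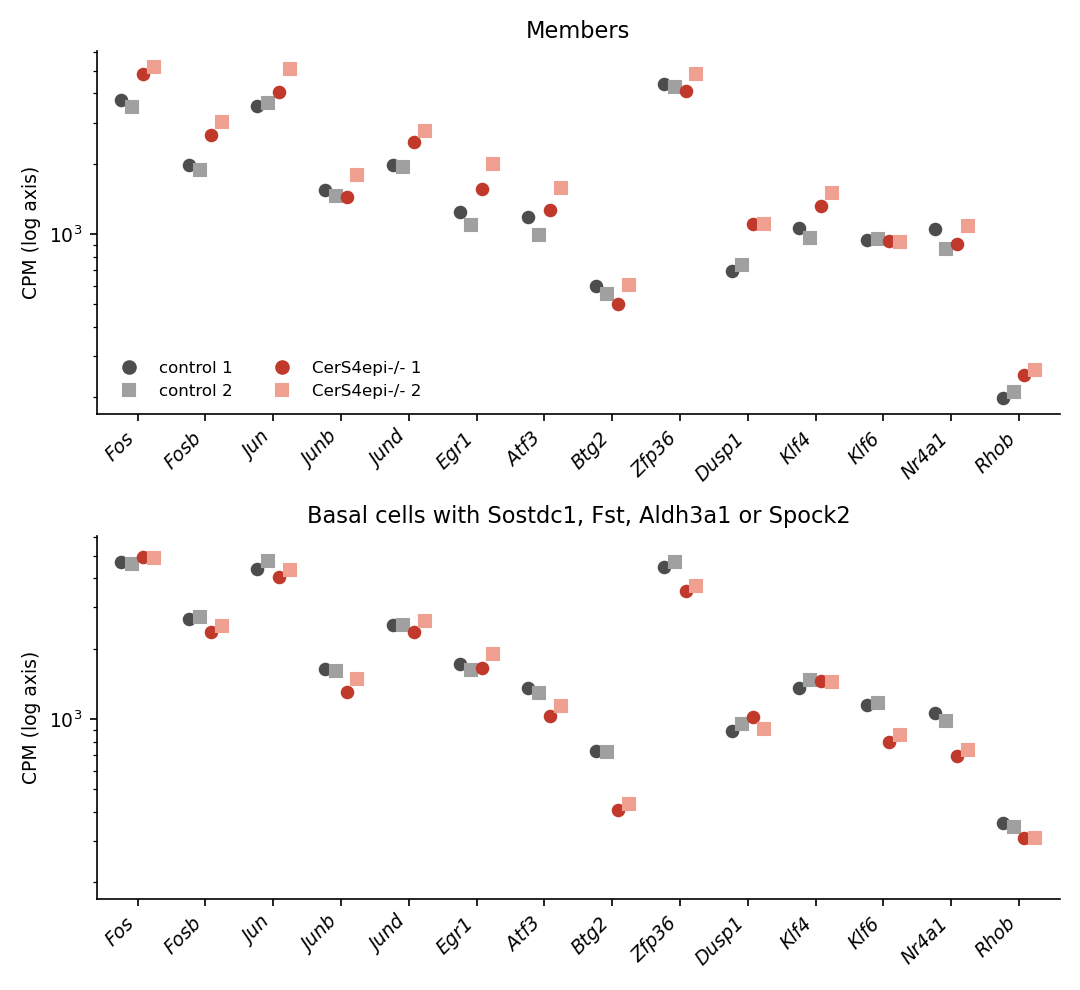
Level of the 14 immediate early genes with a more positive genotype difference in the Smoc2/Sparc basal cells, in CPM on a log axis, in those cells (top, Members) and in Sostdc1/Aldh3a1 basal cells (bottom); each point is 1 mouse. For Fosb the CerS4epi-/- mice are above the control mice in the top panel (2646 and 3021 against 1978 and 1877 CPM) and below them in the bottom panel.

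Among cells with at most 10% mitochondrial counts, 4 of the 29 genes were more positive (median 0.23), and without the mouse as a block none was (median 0.38). DESeq2 called 13. Leaving out a mouse gave 15 without control 1, 14 without control 2, 11 without CerS4epi-/- 1 and 10 without CerS4epi-/- 2. The share of cells with at most 10% mitochondrial counts was 56.9%, 58.1%, 43.1% and 43.7% in the chosen cells of control 1, control 2, CerS4epi-/- 1 and CerS4epi-/- 2, and 52.4%, 62.9%, 29.2% and 36.6% in Sostdc1/Aldh3a1 cells. It moved with genotype in both classes, and its part in the result was not tested. Nor was the part of the enzyme digestion of the skin in the values of the immediate early genes. Among the genes with a more negative difference, 0.263% of all genes, were Cd74, H2-Aa, H2-Ab1 and H2-Eb1, 4 of the 8 Langerhans cell markers tested. H2-Ab1 was at 32.5, 43.5, 7.65 and 37.6 CPM in the chosen cells and 8.54, 12.4, 12.1 and 51.7 CPM in Sostdc1/Aldh3a1 cells, so that CerS4epi-/- 1 and CerS4epi-/- 2 lay far apart in both. The part of Langerhans cell RNA in these values was not tested. Of 9 outer bulge markers 3 were more positive (Postn, Sox9 and Barx2), beside 0.49% of all genes, and none more negative (median 0.38). Their summed level was 636 and 512 CPM in the Sostdc1/Aldh3a1 cells of control mice and 772 and 801 CPM in those of CerS4epi-/- mice, beside the sums in the chosen cells given above, and their part in the result was not tested.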

How the data were processed

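Single-cell RNA libraries of 4 mice, 2 of each genotype, were grouped by the labelled genotype. The deposited matrices hold expected counts of UMIs per gene and barcode, which the authors estimated with STAR on GRCm39 with Gencode vM29. The submitters' processing notes name fastp 0.23.2, STAR 2.7.10a, Scanpy 1.9.1 and Seurat. Entries that were not whole made up 4.55% to 4.81% of a matrix. Library totals were 42619084, 48497481, 53106317 and 39231945 counts in control 1, control 2, CerS4epi-/- 1 and CerS4epi-/- 2.

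A barcode was kept from 1200 counts upward if mitochondrial genes took no more than 20% (8480, 9086, 9017 and 7567 cells). The rule was applied to rounded counts. No doublet caller was run. Counts were summed per mouse and cell class, rounded, and tested with edgeR 4.0.16 (quasi-likelihood, TMM, filterByExpr, Benjamini-Hochberg) in R 4.3.3, with DESeq2 1.42.0 as an alternative. The fits were tested on simulated data. Differences between classes were fitted with the mouse as a block. Shares were tested with scipy 1.17.1, and their intervals are Clopper-Pearson. The text names the 10 largest rises and falls among called genes with a mean of at least 20 CPM and separate groups, up to 4 genes of smallest p from each of 38 lists, the 15 highest and 10 lowest genes against other cells, the 10 genes of smallest p in each difference between classes, and the genes of the rule. Some list genes are given in brief only, and a few that the naming rule chose are not reported here. The rule, the markers and the lists were chosen with earlier results of these data known. Nothing says that mice of a group were from separate litters or runs, and p-values measure the spread between these mice. Alternatives changed the normalization, filters, depth, mitochondrial limit, rule, block and mice. For the genotype effect, thinning to 1200 counts, and for this and the share, the rule without Igfbp3 and the rule without the limit on Sostdc1, Fst, Aldh3a1 and Spock2 were chosen after seeing the data.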

Additional observations from a re-analysis of the deposited data

Results flagged for a closer look

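The results here were picked out because the genotype effect (CerS4epi-/- minus control, log2) differed between the Smoc2/Sparc basal cells and another kind of basal cell of the same mice, by a test of the difference itself in edgeR, and they are the 10 genes of smallest p in each test. No explanation was tested. Against low-Smoc2/Sparc cells all 10 differences were negative. They were -2.91 for Cst6, -3.36 for Gm94, -3.40 for Sprr1a, -4.27 for Csta1, -4.11 for Lce1m, -3.33 for Klk7, -4.08 for Bpifc, -1.39 for Calm4, -5.01 for Lce1c and -3.11 for Flg2. Calm4 was at 348 and 359 CPM in the low-Smoc2/Sparc cells of control mice and 1122 and 1249 CPM in those of CerS4epi-/- mice, against 324 and 408 and 426 and 539 CPM in the Smoc2/Sparc cells. For Gm94, Csta1, Bpifc and Flg2 both CerS4epi-/- mice lay above both control mice in the low-Smoc2/Sparc cells, and the groups overlapped in the Smoc2/Sparc cells.

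Against Sostdc1/Aldh3a1 cells the difference was positive for Fosb (0.69), Aqp3 (1.89), Nfkbia (0.67), Atf3 (0.67), Hes1 (0.82), Btg2 (0.69) and Sfn (0.50). It was negative for Glul (-1.36), H2-Ab1 (-2.39) and Cd74 (-2.86). Glul, which encodes glutamine synthetase, was at 474 and 333 CPM in the Smoc2/Sparc cells of control mice and 219 and 339 CPM in those of CerS4epi-/- mice, against 464 and 347 and 583 and 835 CPM in Sostdc1/Aldh3a1 cells. Its groups overlapped in the former and not in the latter. Btg2 was at 602, 555, 499 and 605 CPM in the Smoc2/Sparc cells of control 1, control 2, CerS4epi-/- 1 and CerS4epi-/- 2, and at 728, 718, 409 and 434 CPM in the Sostdc1/Aldh3a1 cells.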

How the results depend on the processing

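The lower share of Smoc2/Sparc basal cells in CerS4epi-/- mice kept its direction in every alternative run, and lay between -27.2 and -24.9 points without 1 mouse. Of 57 named genes called within these cells, 29 were called with the same sign in all 21 alternatives and 28 lost the call in at least 1. Beside the losses without 1 mouse given above, Mab21l4, Zdhhc2, Sprr1a, Fzd3, Thy1 and Col6a1 were not called in DESeq2, and Zdhhc2, Itgb4, Fzd3, Id2, Etv4, mt-Atp8, Thy1 and Col6a1 not at no more than 10% mitochondrial counts. Without Igfbp3 in the rule Mab21l4, Paqr5, Zdhhc2, Itgb4, Sprr1a, Jund, Egr1, Id2, Etv4, Col6a1 and Gata3 were not called. With thinned cells Ptp4a3, Zdhhc2, Tgfb2 and Id2 were not. Counts of genes follow as higher and lower. Within the Smoc2/Sparc cells (104 and 36) they ranged without 1 mouse from 60 to 157 and from 21 to 89. DESeq2 gave 23 lower, no filter on low counts 284 and 224, cells with a marker of another type left out 158 and 78, the rule without the limit on the barred genes 158 and 72, a sum of at least 3 gave 104 lower and thinning 58 lower. In all basal cells (315 and 168) they ranged without 1 mouse from 137 to 396 and from 43 to 148, with 105 lower in DESeq2 and 131 and 44 at no more than 10% mitochondrial counts. For the difference from low-Smoc2/Sparc cells (8 and 55) the ranges were 5 to 57 and 39 to 161, with 0 and 32 in DESeq2, 48 and 166 without a filter, 4 higher at no more than 10% mitochondrial counts and 0 and 13 without the mouse as a block. For the difference from Sostdc1/Aldh3a1 cells (56 and 30) they were 33 to 81 and 30 to 78, with 24 and 3 in DESeq2, 90 and 108 without a filter, 36 higher at 2000 counts or more, 19 higher at no more than 10% mitochondrial counts and 1 and 0 without that block. Ccnd2 turned in sign without control 2, with ranges of -0.072 to 0.22 in the Smoc2/Sparc cells and -0.11 to 0.18 in all basal cells, and Itga3 turned in all basal cells at no more than 10% mitochondrial counts (0.038). The causes were not tested.

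The replicate numbers are shared by both genotypes but nothing ties mice of the same number, and the deviations of same-numbered mice correlated at 0.167. With the number as a replicate block, 362 and 268 genes were called in the Smoc2/Sparc cells and 613 and 398 in all basal cells. Few counts per cell limit what can be said of rare transcripts such as Cers4.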
